A study of Mus musculus with 6 samples.

Results

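Fibroblast growth factors (FGFs), their receptors, their binding proteins and the feedback and target genes of their signal were compared between digit tips of control mice and of mice labelled K14-CreER;Ctnnb1 cKO. Members were the transcript clusters (probes summarised together as 1 transcript) annotated to an Fgf, Fgfr, Fgfrl1, Fgfbp, Spry or Spred gene, or to Dusp6, Etv4 or Etv5. The rule used symbols alone. It gave 41 of 28853 clusters: 40 carried 1 gene each and stood for 38 of the 20793 genes tested, and 1 cluster, that of Fgf2, was shared with another symbol and is given apart.

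RNA of whole, intact digit tips from mice 8 weeks old was measured on 6 Affymetrix whole-transcript arrays, 3 per group. The labels name a labelling kit made for 3′ expression arrays, whereas the file headers name a whole-transcript array, and which part of a transcript the signals reflect was not tested. The control animals are labelled wild type. The cKO animals carry a conditional deletion of Ctnnb1, the gene of beta-catenin, by a Cre recombinase whose activity needs an inducer and which is driven by the promoter of keratin 14, active in basal epithelium. The titles call the samples biological replicates. The labels do not say when the inducer was given, whether controls received it, or whether a sample is 1 animal or a pool. Besides epithelium a digit tip has dermis, bone, vessels and nerve, where the keratin 14 promoter is not active. In such bulk RNA, fewer cells of a type cannot be told apart from less RNA per cell. Every value is a log2 signal from which the median of the 3 controls, cluster by cluster, has been subtracted. They hold no absolute level, so neither the presence of a transcript nor the rank of the genes by abundance can be read from them. Ctnnb1 itself stood at 0, -0.19 and 0.59 in control tips and was lower in all cKO tips, at -1.10, -0.87 and -1.06 (limma adjusted p = 0.0284 over all genes).

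FGFs are secreted proteins that bind receptor tyrosine kinases together with heparan sulphate, and the receptors signal through the RAS and MAP kinase cascade. The cascade switches on the ETS factors Etv4 and Etv5 and a set of inhibitors, Sprouty and Spred proteins and the phosphatase Dusp6, that restrain it in turn, so transcripts of these genes are commonly read as a gauge of the signal. In skin and its appendages, mesenchymal Fgf7 and Fgf10 act on the epithelial splice form of Fgfr2, while Fgfr1 is mainly mesenchymal.

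None of the 38 genes passed the test over all genes. Limma called 0 higher and 0 lower at an adjusted p of 0.05, against 1.94% of all genes tested (1.24% higher and 0.697% lower), and the smallest adjusted p among them was 0.136. The members nearest to a call were the receptor Fgfr2 and the ligand-family genes Fgf1, Fgf13 and Fgf22, with lower values in the cKO, and the inhibitor Spry1, with higher values. These were the 5 members with an unadjusted p under 0.05, which is 13.2% of the members against 12.5% of all genes. By direction, 1 of the 38 had higher and 4 of the 38 had lower values, where 6.73% and 5.73% of all genes did. The groups did not overlap in 9 members, 23.7% against 19.4% of all genes. In 4 of the 38 the cKO arrays all lay above the controls (10.1% of all genes) and in 5 of the 38 all below (9.25%). The overall shares lie near the background. The median log2 difference (cKO minus control) was -0.01 over the members and 0.00 over all genes, with 18 members of positive and 20 of negative difference (49.6% of all genes were positive).

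**Figure D1:**
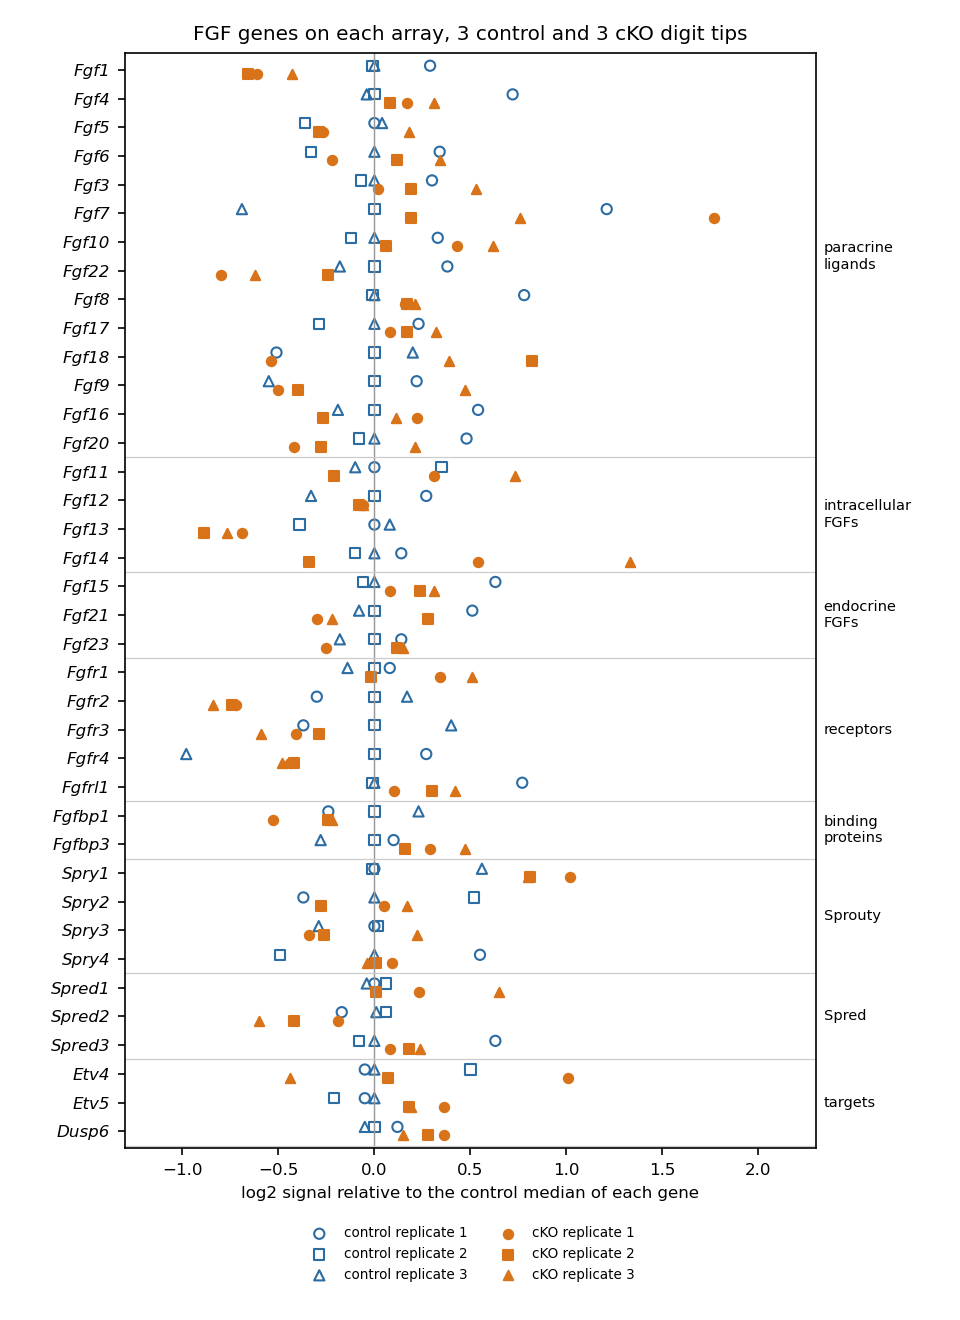
Log2 signal after subtraction of the control median (horizontal axis) for the 38 genes in rows, grouped by role, with open blue symbols for the 3 control arrays and filled orange symbols for the 3 cKO arrays. In 9 rows the groups do not overlap. Fgf1, Fgf13, Fgf22, Fgfr2 and Spred2 have all cKO arrays to the left of the controls, and Fgfbp3, Spry1, Etv5 and Dusp6 have them to the right. The row of Etv5 is the mean of a pair of clusters that cannot both be on the gene.

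The precision allows a bound to be put on these genes. Standard errors of the difference ran from 0.20 to 0.45, with a median of 0.24, and a gene of median error would have been called at an absolute difference of about 1.01 on the log2 scale, a 2.01-fold change. The 95% interval lay within a 2-fold change either way for 30 of the 38 members. The other 8 were Fgf1, Fgf7, Fgf13, Fgf14, Fgf18, Fgf22, Fgfr2 and Spry1.

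**Figure D2:**
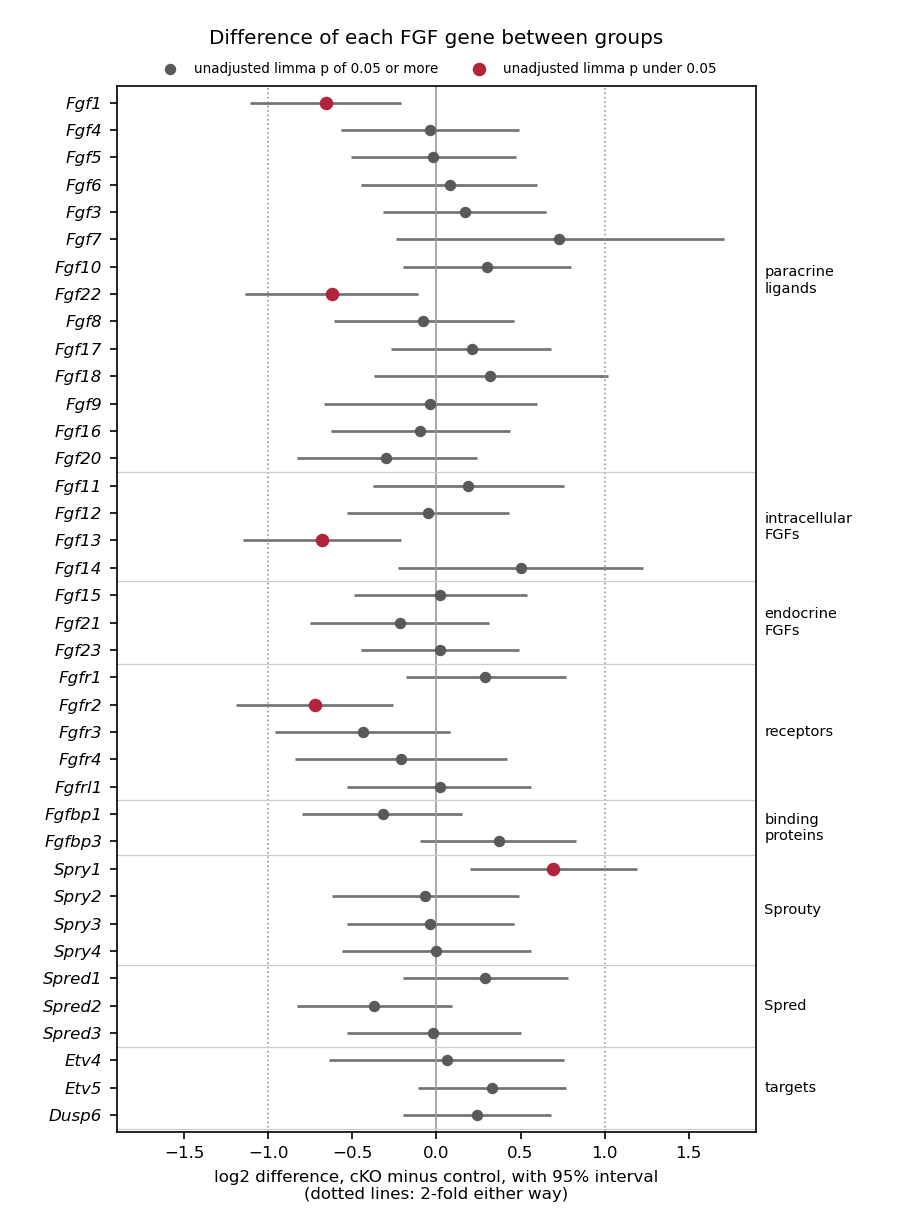
Log2 difference, cKO minus control (horizontal axis), for each of the 38 genes, as a point with its 95% interval from limma over 3 arrays per group. Red points are the 5 members with an unadjusted p under 0.05, and dotted lines mark a 2-fold change either way. The widest interval is that of Fgf7, from -0.24 to 1.71.

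Among the receptors, Fgfr2 had the smallest p of all members. Its values were -0.30, 0 and 0.17 in control tips and -0.72, -0.74 and -0.84 in cKO tips. The cKO arrays lay close together and 0.42 below the lowest control. The log2 difference was -0.72 ± 0.21 (limma SE, n = 3 per group), 60.6% of the control, with a 95% interval from -1.19 to -0.26 and a limma adjusted p of 0.136. When limma weighted arrays by their scatter within the groups, Fgfr2 was called, at -0.76 and a limma adjusted p of 0.03. It was the 1 member called under any alternative run. The highest weight, 2.22, went to cKO replicate 1. Without that array, and without weights, the difference was -0.75 (limma adjusted p = 0.28). The weighted fit called 3.98% of all genes. A single cluster stands for Fgfr2, and its epithelial and mesenchymal splice forms were not separated here. That cluster is annotated from 136643076 to 137410322 of build mm9. Whether all of its probes lie within Fgfr2 was not tested.

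Fgfr3, a receptor that restrains bone growth and is also found in epidermis, had values of -0.37, 0 and 0.40 in control tips and -0.41, -0.29 and -0.59 in the cKO. The groups overlapped by 1 control array, and the difference was -0.44 ± 0.24 (limma adjusted p = 0.502). Fgfr1 had 0.08, 0 and -0.14 in control tips against 0.34, -0.02 and 0.51. Its difference was 0.29 ± 0.22 (limma adjusted p = 0.643), and cKO replicate 2 lay among the controls. On each array the relative value of Fgfr1 minus that of Fgfr2 was 0.38, 0 and -0.30 in control tips and 1.06, 0.72 and 1.35 in the cKO. This pair was chosen after the values were seen, so it is given without a test. Fgfr4 had values of 0.27, 0 and -0.98 in control tips and -0.44, -0.42 and -0.48 in the cKO. The spread of its controls spanned all cKO arrays. Fgfrl1, a receptor-like protein without the kinase domain, had 0.77, -0.01 and 0 against 0.10, 0.30 and 0.42. Its difference was 0.02 with a 95% interval from -0.53 to 0.56, and control replicate 1 was its highest array.

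Of the 14 secreted, locally acting FGF ligands on clusters of their own, 0 were called, 2 had an unadjusted p under 0.05, and their median difference was -0.03. Fgf1, a ligand that binds all FGF receptors and lacks a classical signal peptide, had values of 0.29, -0.01 and 0 in control tips and -0.61, -0.66 and -0.43 in the cKO. Every cKO array lay at least 0.43 below every control array. The difference was -0.66 ± 0.21, 63.4% of the control, with a 95% interval from -1.11 to -0.21 and a limma adjusted p of 0.174.

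The FGF7 subfamily holds the ligands of the epithelial form of Fgfr2. Fgf22, a member of it made in skin, had values of 0.38, 0 and -0.18 in control tips and -0.80, -0.24 and -0.62 in the cKO. The groups did not overlap, but the gap was 0.06, between control replicate 3 and cKO replicate 2. Its difference was -0.62 ± 0.24 with a 95% interval from -1.14 to -0.11 (limma adjusted p = 0.283). Fgf7, keratinocyte growth factor, varied most of all members. It had 1.21, 0 and -0.69 in control tips and 1.77, 0.19 and 0.76 in the cKO. Control replicate 1 exceeded 2 of the 3 cKO arrays. The difference of 0.73 ± 0.45 (limma adjusted p = 0.561) was 0.30 without cKO replicate 1 or without control replicate 3, and 1.25 without control replicate 1. Fgf10, a mesenchymal ligand needed for limb and skin appendage growth, had 0.33, -0.12 and 0 against 0.43, 0.06 and 0.62. Its groups overlapped, at a difference of 0.30 ± 0.23. Fgf3, the remaining member of the subfamily, differed by 0.17 ± 0.22.

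Ligands of the other subfamilies differed by less than their errors or little more. Fgf5, which ends hair growth phases, had 0, -0.36 and 0.04 in control tips and -0.27, -0.29 and 0.18 in the cKO, a difference of -0.02 ± 0.23. Fgf18, a ligand of hair follicle, bone and cartilage, had -0.51, 0 and 0.20 against -0.54, 0.82 and 0.39. It was lowest in cKO replicate 1 and highest in cKO replicate 2, and its difference of 0.32 ± 0.32 was 0.70 and 0.02 without either of them in turn. Fgf9, a ligand made in epithelium and by immune cells in wounds, had 0.22, 0 and -0.55 against -0.50, -0.40 and 0.47. Fgf8, the ligand of the embryonic limb ridge, had 0.78, -0.01 and 0 against 0.16, 0.17 and 0.21. In Fgf9 and Fgf8 the groups overlapped, with differences of -0.04 ± 0.29 and -0.08 ± 0.25. The remaining 5 ligands on clusters of their own, Fgf4, Fgf6, Fgf16, Fgf17 and Fgf20, lay between Fgf20 at -0.30 and Fgf17 at 0.21, with overlapping groups.

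Fgf2, basic FGF, a ligand made by many cell types of skin, lies on a cluster shared with the symbol LOC100048827, so its value cannot be given to Fgf2 alone. That cluster had -0.38, 0.37 and 0 in control tips and -0.77, -0.38 and -0.16 in the cKO. Control replicate 1 lay at the level of the cKO arrays. In the fit over all 28853 clusters, which called 1.38% of them, the difference was -0.43 ± 0.25 (limma adjusted p = 0.556). It was -0.76 with array weights (limma adjusted p = 0.0887) and -0.25 without control replicate 2.

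The intracellular FGFs are not secreted and bind sodium channels and microtubules. Fgf13 had 0, -0.39 and 0.08 in control tips and -0.69, -0.89 and -0.77 in the cKO, with every cKO array at least 0.30 below every control array. Its difference was -0.68 ± 0.22, 62.4% of the control, with a 95% interval from -1.15 to -0.21 and a limma adjusted p of 0.176. Fgf13 lies on the X chromosome, and cKO replicate 1 stood apart from the other 5 arrays in sex-linked genes. That array had -5.84 for Xist and 8.08 for the Y-linked Ddx3y, while the other arrays lay between -0.39 and 0.08 and between -0.22 and 0.01. It also had 7.62 for Eif2s3y and 6.84 for Uty. By these genes that array reads as male and the other 5 as female, so the groups were not balanced by sex. The part of this in the members' values was not tested. Without cKO replicate 1 the difference of Fgf13 was -0.73. Fgf14 had 1.33 on cKO replicate 3, above all controls, and -0.34 on cKO replicate 2, below all controls. Its difference of 0.50 ± 0.34 was 0.09 without the former and 0.92 without the latter. Fgf11 and Fgf12 differed by 0.19 ± 0.26 and -0.05 ± 0.22. The hormone-like FGFs, Fgf15 of the gut, Fgf21 of the liver and Fgf23 of bone, differed by 0.02, -0.22 and 0.02, all with overlapping groups.

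Both FGF-binding proteins, which release FGFs from the matrix, were measured. Fgfbp3 had 0.10, 0 and -0.28 in control tips and 0.29, 0.16 and 0.47 in the cKO. All cKO arrays lay above the controls, by at least 0.06, and the difference was 0.37 ± 0.21 (limma adjusted p = 0.539). Fgfbp1, made in epithelium, differed by -0.32 ± 0.22 (limma adjusted p = 0.606), and cKO replicates 2 and 3 lay at the level of control replicate 1.

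Of the 10 feedback and target genes, 0 were called, and their median difference was 0.03. Spry1, a Sprouty inhibitor of receptor tyrosine kinase signals, was the 1 with an unadjusted p under 0.05 in the fit over genes. In the fit over all clusters, a cluster of Spred2 (-0.55, limma unadjusted p = 0.0261) and a cluster of Etv5 (0.57, limma unadjusted p = 0.0287) also passed that limit. Each was averaged with another cluster of larger p to give the value of the gene. Spry1 had 0, -0.01 and 0.56 in control tips and 1.02, 0.81 and 0.80 in the cKO. Control replicate 3 lay 0.25 below the lowest cKO array, and the other controls lay further below. The difference was 0.69 ± 0.23, 162% of the control, with a 95% interval from 0.20 to 1.19 and a limma adjusted p of 0.19.

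In the other Sprouty genes the groups overlapped. Spry2 had -0.37, 0.52 and 0 in control tips and 0.05, -0.28 and 0.17 in the cKO. Spry4 had 0.55, -0.49 and 0 against 0.09, 0.01 and -0.04. In both, the controls spanned all cKO arrays, and the 95% intervals of the difference ran from -0.62 to 0.49 and from -0.56 to 0.56. The relative value of Spry1 minus that of Spry2 was 0.37, -0.52 and 0.56 in control tips and 0.96, 1.08 and 0.63 in the cKO. This pair too was chosen after the values were seen and was not tested. Spry3 differed by -0.04 ± 0.23.

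The Spred genes are inhibitors that act on RAS and RAF, and none of the 3 passed the test. Spred2 had -0.17, 0.06 and 0.01 in control tips and -0.19, -0.42 and -0.60 in the cKO, a difference of -0.37 ± 0.21 (limma adjusted p = 0.53). The groups were separated by 0.02, between control replicate 1 and cKO replicate 1. It is the mean of a pair of clusters, which lie next to each other on 1 strand and differed by -0.55 ± 0.22 and -0.20 ± 0.21. Spred1 had 0, 0.06 and -0.04 against 0.23, 0.01 and 0.65. Its groups overlapped through cKO replicate 2, and Spred3 differed by -0.02 ± 0.24.

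Of the genes most directly switched on by the signal, Dusp6 had 0.12, 0 and -0.05 in control tips and 0.36, 0.28 and 0.15 in the cKO. The cKO arrays all lay above the controls, but by 0.03 at the nearest, and the difference was 0.24 ± 0.20 with a 95% interval from -0.20 to 0.68. Etv4 had -0.05, 0.50 and 0 against 1.01, 0.07 and -0.44, so the cKO arrays held both the highest and the lowest value. As the mean of 2 clusters, Etv5 had -0.05, -0.21 and 0 against 0.36, 0.18 and 0.19, without overlap, at 0.33 ± 0.20 (limma adjusted p = 0.567). Those clusters lie at distant positions on opposite strands and cannot both be on the gene. The mean is thus not a value of Etv5 alone, and which cluster lies on the gene was not determined. The one at positions 22381386 to 22439691 of build mm9 (chromosome not given in the sources used here) differed by 0.57 ± 0.23 (limma adjusted p = 0.353), without overlap. The one at 71167036 to 71170604 differed by 0.09 ± 0.23, with overlapping groups.

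The stretches upstream of the members with an unadjusted p under 0.05 were read from RefSeq's promoter table of build GRCm38.p6, which held 28 of the 38 members in 36 windows. Fgfr2, Fgf22 and Spry1 have 1 listed start each and are shown, as 250 bases ending at the start. Fgf13 has several listed starts and is not shown, and the stretch of Fgf1 is not reported here. The stretches shown thus do not stand for all members below that limit. Letters searched on both strands were the TCF/LEF core CTTTGA, bound by the partners of beta-catenin, the ETS core CCGGAA, bound by factors such as Etv4 and Etv5, and the GC box CCGCCC. Capitals mark every match of any of the 3 motifs, and only GC boxes were found in the stretches shown.
Fgfr2 (chr7:130266809-130267058, minus strand): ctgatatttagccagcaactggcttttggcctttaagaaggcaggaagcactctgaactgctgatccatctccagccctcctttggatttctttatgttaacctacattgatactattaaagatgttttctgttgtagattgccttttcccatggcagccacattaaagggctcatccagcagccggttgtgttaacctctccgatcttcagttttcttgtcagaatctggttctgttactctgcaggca
Fgf22 (chr10:79754859-79755108, plus strand): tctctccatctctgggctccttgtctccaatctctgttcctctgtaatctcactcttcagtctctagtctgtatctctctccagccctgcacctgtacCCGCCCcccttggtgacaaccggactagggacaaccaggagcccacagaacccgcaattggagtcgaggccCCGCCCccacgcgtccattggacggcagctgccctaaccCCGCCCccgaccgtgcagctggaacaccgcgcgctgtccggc
Spry1 (chr3:37639697-37639946, plus strand): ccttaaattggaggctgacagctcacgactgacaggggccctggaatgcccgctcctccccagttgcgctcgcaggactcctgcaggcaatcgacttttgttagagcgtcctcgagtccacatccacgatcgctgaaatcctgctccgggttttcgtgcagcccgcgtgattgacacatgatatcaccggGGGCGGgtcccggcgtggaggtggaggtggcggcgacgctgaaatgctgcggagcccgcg
The Fgfr2 stretch held none of the 3 motifs and was 44.0% G and C, against a median of 52.4% over all 32851 windows. The Fgf22 and Spry1 stretches, both 62.4% G and C, held 3 GC boxes and 1 GC box, and neither of the other motifs. Over all member windows the TCF/LEF core was found in 3 of 36 (8.33%, against 13.8% of all windows), in Fgf3, Fgf6 and Fgf23. The ETS core was found in 4 of 36 (11.1%, against 12.0%), and the GC box in 22 of 36 (61.1%, against 32.7%). These are counts of letters in these windows, several of which belong to 1 gene.

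The rest of the pathway was read in 4 lists. Of 91 measured genes limma called 0 higher and 0 lower, with a median difference of -0.01. At an unadjusted p under 0.05 there were 14 with higher and 6 with lower values, 22.0% against 12.5% of all genes, and groups did not overlap in 29 (31.9% against 19.4%). Among the 19 co-receptors, 4 had higher and 2 had lower values at an unadjusted p under 0.05 (31.6%), and the 3 of smallest p are named. Cdh2 (N-cadherin, which binds FGF receptors) had 0, 0.65 and -0.23 in control tips and 0.92, 1.97 and 1.14 in the cKO. Its difference was 1.20 ± 0.31 (limma adjusted p = 0.0747), and it was called without control replicate 2 (limma adjusted p = 0.0163), without cKO replicate 1 (0.0487) and with the replicate number as a block (0.00591, a fit that called 2.77% of all genes). Flrt2, a membrane protein that binds FGF receptors, differed by 0.73 ± 0.24, and Hspg2, the heparan sulphate proteoglycan perlecan, by 0.72 ± 0.24.

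Among 21 genes of heparan sulphate synthesis and processing, 5 had an unadjusted p under 0.05, all with higher values in the cKO (23.8%, against 6.73% of all genes in that direction and 12.5% in either), and the median difference was 0.15. Hpse, the enzyme that cleaves heparan sulphate, differed by 1.17 ± 0.33 (limma adjusted p = 0.113) and was called without control replicate 2 (limma adjusted p = 0.0135) and with the replicate block (0.00665). The sulphotransferases Hs6st3 and Hs3st3a1 differed by 0.69 ± 0.21 and 0.73 ± 0.23, the latter called with array weights (limma adjusted p = 0.0304). Of 29 signal transducers, 3 had higher and 2 had lower values at an unadjusted p under 0.05 (17.2%, against 12.5% of all genes). The transcription factor Stat3 (0.58 ± 0.21), the kinase Rps6ka1 (-0.57 ± 0.23) and the PI3-kinase subunit Pik3r1 (-0.55 ± 0.23) had the smallest p. Of 22 further feedback and target genes, 2 had higher and 2 had lower values at that limit (18.2%). Smallest in p were Phlda1 (0.82 ± 0.23, called with array weights at a limma adjusted p of 0.0478), Rasa1, which switches RAS off (-0.63 ± 0.25), and Spsb1 (0.61 ± 0.26).

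**Figure D3:**
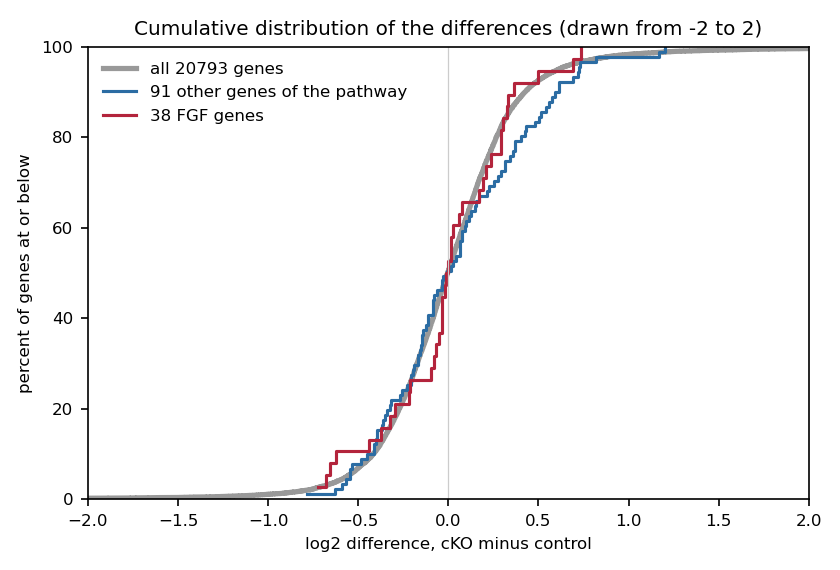
Percent of genes (vertical axis) at or below a given log2 difference, cKO minus control (horizontal axis), for all 20793 genes, the 91 other genes of the pathway and the 38 FGF genes. The curve of the FGF genes runs along that of all genes, with medians of -0.01 and 0.00, and ends at 0.73.

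Some marker lists of tissues in a digit tip held called genes, where 1.94% of all genes were called. In the stressed epidermis list 9 of 12 genes were called higher, in the osteoblast and osteocyte list 5 of 11, in the dermal fibroblast list 5 of 12, and 6 of 10 sebaceous gland genes were called lower. Of osteoclast, T cell and macrophage genes, 3 of 8, 3 of 8 and 2 of 9 were called higher. Of suprabasal epidermis genes, 3 of 8 were called lower. The cartilage and adipocyte lists, of 10 genes each, held 1 called higher and 1 called lower apiece. In the sweat gland (8 genes), Schwann cell and nerve (8), skeletal muscle (9) and endothelium (10) lists 0 were called, with median differences of -0.19, -0.16, -0.07 and 0.65. Beside the lower values of Fgfr2, Fgf1, Fgf13 and Fgf22, the sebaceous gland median was 0, -1.05 and 0.06 in control tips and -1.59, -2.61 and -2.52 in cKO tips. The list median of basal epidermis, with 1 of 8 genes called lower (Krt15) and Krt14 at a difference of 0.37, was 0, 0.02 and 0 in control tips and -0.07, -0.12 and -0.20 in the cKO. That of nail and hair matrix, with 2 of 12 called lower and Krt84 and Krt36 at differences of 0.88 and 0.63, was -0.01, 0 and 0 against -0.78, 0.03 and -0.60. Beside the higher values of Spry1, the medians of several lists were higher in the cKO. That of stressed epidermis was 1.33, 1.36 and 1.39 in cKO tips, and that of osteoblasts and osteocytes 0.86, 1.36 and 1.18. The median of dermal fibroblast genes, with Dcn at a difference of -0.37, was 0.20, 0 and -0.23 against 0.94, 0.56 and 0.71. That of endothelial genes was 0, 0 and -0.27 against 0.74, 0.36 and 0.71. Of these genes 6 of 10 had an unadjusted p under 0.05, all with higher values, against 6.73% of all genes in that direction and 12.5% in either. The part of these tissues in the members' values was not tested, and summed levels cannot be formed from relative values.

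**Figure D4:**
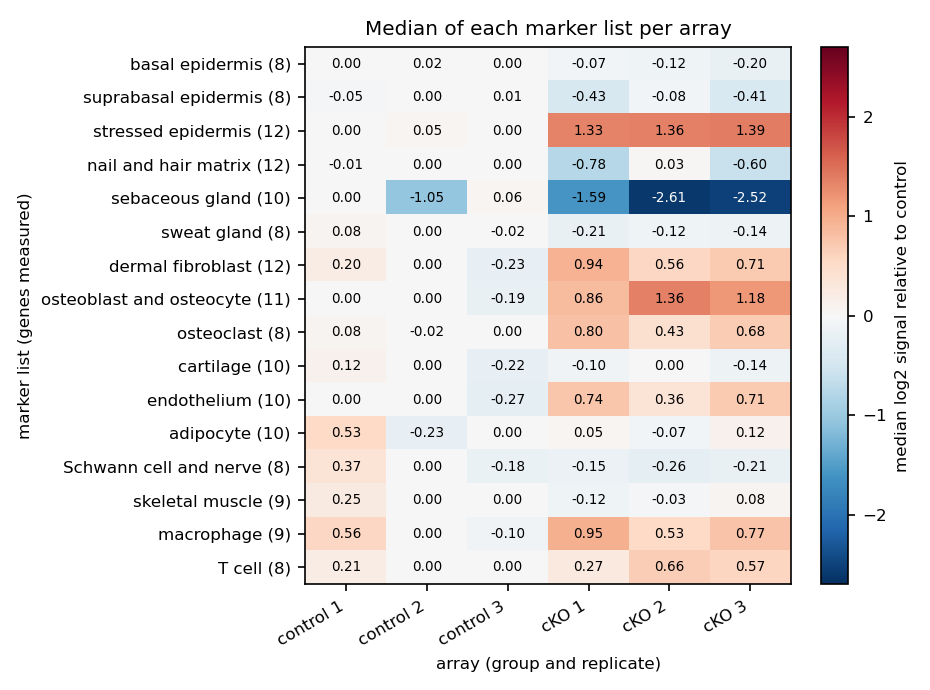
Median log2 signal relative to control of each marker list (rows, with the number of genes measured) on each array (columns), in colour and as a number. The cKO arrays are highest in the stressed epidermis list, between 1.33 and 1.39, and lowest in the sebaceous gland list, between -2.61 and -1.59.

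In the authors' deposited list of clusters past a 1.5-fold change, which holds 6.08% of all clusters, 3 member clusters were listed. These were Fgf1 (signed fold -1.58), Fgf7 (1.66) and Spry1 (1.62). The authors' deposited table of significant clusters, 2.36% of all, held Fgf1, with a corrected p of 0.027 from a test over the 1.5-fold list alone. That list was chosen on the same values, so this p is not separate support for a change. Fgfr2, Fgf13 and Fgf22 also differed by at least 1.5-fold in mean (6 members did in all, and 9.93% of all genes) but are not in that list. All 3 missed the authors' filter on the bottom 20th percentile as rebuilt from the values, as did 9 of the 38 members in all. The filter kept 72.8% of all clusters. Since the filter ran on control-centred values, its limit was -0.14, -0.13 and -0.16 in control tips and -0.31, -0.31 and -0.39 in cKO tips. For Fgfr2, 2 of 3 control arrays and 0 of 3 cKO arrays reached it. For Fgf1, 3 of 3 control arrays and 0 of 3 cKO arrays did, so it passed through the controls alone. The limit was thus one on the difference from the controls and not on the signal level.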

How the data were processed

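Per the methods sheet the authors deposited, signals were summarised and quantile-normalised with PLIER16 and set to the median of the controls, and the deposited values are log2. Per the file headers, the array was MoGene 1.0 ST with annotation na31 on build mm9. The authors' deposited tables also give p-values and a signed fold score, from an unpaired t-test per the header and an ANOVA per the methods sheet. No depth applies, and the number of arrays limits the precision.

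Groups and replicate numbers came from the sample titles. Symbols were updated through Entrez identifiers with RefSeq's table of GRCm38.p6, and a gene was the mean of the clusters that carry it alone. The test was the moderated one of limma 3.58.1 (lmFit then eBayes, group as the only term, R 4.3.3), with Benjamini-Hochberg adjustment over 20793 genes at 0.05. Errors of differences are limma standard errors, and 95% intervals are limma's, unadjusted. No filter on low values was applied. The pathway and marker lists hold textbook genes, and the members and lists were chosen with earlier results of these data known. Values on each array are given for members with an unadjusted p under 0.05 or groups without overlap and for a fixed set of well-known members, and of each pathway list the 3 of smallest p are named. The workbook's per-array values differed from the series value table by at most 5e-05. The rebuilt percentile filter placed 2658 of 2658 clusters past a 1.5-fold change in or out of the authors' list as deposited. On values simulated over 20793 genes with this comparison's variances, 200 genes were changed per run. The share of these recovered was 29.6% at 2-fold and 97.8% at 4-fold. In the data 403 genes were called, so the limit of a call need not be the same in both. Alternatives were the workbook values, centred arrays, a replicate block, weights per array, robust variances, clusters tested singly, the percentile filter, the plain t-test over all genes, and leaving out each array. Figures were made with matplotlib.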

Additional observations from a re-analysis of the deposited data

How the results depend on the processing

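With 3 arrays per group, changes near 2-fold were often missed in a simulation with 200 changed genes, so a gene without a call may still differ. No member was called higher under any alternative, and 1, Fgfr2, was called lower with array weights (count 1), and 0 under the others. The shared Fgf2 cluster was called under none. The counts of called pathway genes with higher values were 2 with the replicate block and 2 with array weights, and ran from 0 to 2 when 1 array was left out. The median difference of the members ran from -0.08 to 0.14 when 1 array was left out, the highest without control replicate 1. Over all genes, 403 were called, against 828 with array weights, 13 with the plain t-test, 261 without control replicate 1, 255 without control replicate 3 and 192 without cKO replicate 3. Correlations of same-numbered arrays' deviations from their group means were 0.0424, 0.138 and -0.0851. Those of differently numbered arrays ran from -0.187 to 0.138. With 3 arrays per group, such correlations cannot decide whether replicate numbers pair the samples. The replicate block called 575 of all genes and 0 members, as many members as without it.

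The sign of small differences turned in 17 of the 38 members, the largest of them 0.32 in size, and the cause was not tested. Centred arrays gave -0.01 for Fgf23 and -0.01 for Fgfrl1. Array weights gave 0.11 for Fgf4, 0.09 for Fgf8, -0.08 for Fgf18, 0.08 for Fgf16, 0.01 for Fgf12, -0.06 for Fgf23 and 0.11 for Spred3. Leaving out 1 array gave ranges from -0.17 to 0.21 for Fgf4, -0.17 to 0.06 for Fgf5, -0.09 to 0.25 for Fgf6, -0.21 to 0.19 for Fgf8 and -0.34 to 0.14 for Fgf9. The ranges were -0.25 to 0.11 for Fgf16, -0.04 to 0.43 for Fgf11, -0.20 to 0.10 for Fgf12, -0.10 to 0.24 for Fgf15 and -0.07 to 0.14 for Fgf23. They were -0.11 to 0.28 for Fgfrl1, -0.58 to 0.04 for Fgfr4, -0.28 to 0.16 for Spry2, -0.21 to 0.07 for Spry3, -0.15 to 0.21 for Spred3 and -0.34 to 0.39 for Etv4. The difference of Spry4, 0.00 and so without a sign, ran from -0.25 to 0.26. Without a turn of sign, the values still moved by over 1.5 times, from 0.03 to 0.28 for Fgf3, 0.18 to 0.46 for Fgf10, 0.07 to 0.33 for Fgf17, -0.48 to -0.12 for Fgf20, -0.40 to -0.04 for Fgf21, 0.18 to 0.44 for Fgfr1, -0.63 to -0.24 for Fgfr3, -0.44 to -0.21 for Fgfbp1 and 0.12 to 0.43 for Spred1.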

Other observations

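Control replicate 1 held the highest of the 3 control values in 24 of the 38 members (63.2%, against 48.4% of all genes), among them Fgf4, Fgf8, Fgf15, Fgfrl1 and Spred3, which were chosen after their values were seen and lay between 0.63 and 0.78 there. Over all 6 arrays it was the highest in 14 members (36.8%, against 28.0% of all genes), and cKO replicate 3 in 12 (31.6%, against 26.0%). Control replicate 1 also had the lowest array weight of the 6, 0.384. The highest, 2.22, was that of cKO replicate 1, the array that stood apart in sex-linked genes.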
